A study of Mus musculus with 6 samples.

Results

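Foxm1 and the genes of the DREAM and MuvB complexes were followed in long-term hematopoietic stem cells (LT-HSCs) from wild type (WT) and Foxm1 heterozygous (Foxm1 HET) mice. The 10 genes are set by name, from a choice made with earlier results of these data known: Foxm1, Mybl2, Lin9, Lin37, Lin52, Lin54, Rbbp4, E2f4, Rbl1 and Rbl2. All 10 were found in the normalized table of 12179 genes and, by the same gene identifiers, in the table of read counts for 27179 genes. The study asked what loss of 1 Foxm1 allele does to HSCs. RNA-Seq was performed on LT-HSCs, sorted from bone marrow as CD150+CD48-LSK cells, of 3 WT and 3 Foxm1 HET mice of the C57BL/6 strain, all 8 weeks old. No treatment is given for either group. The titles of the Foxm1 HET samples name a floxed allele over a plus allele and no Cre, while their genotype label reads Foxm1 heterozygous. Elsewhere in the study the floxed allele was deleted by Tie2-Cre, active in endothelial and hematopoietic cells, or by Mx1-Cre, which is induced by interferon. For other experiments the study uses Foxm1 HET for Tie2-Cre Foxm1 fl/+ mice and takes Foxm1 fl/+ mice without Cre as controls. For the RNA-Seq mice themselves, neither the driver nor the alleles of the controls are named in the sources used here.

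Foxm1 is a forkhead transcription factor best known for switching on the genes that cells need for the G2 phase and mitosis, and it is most active in dividing cells. It reaches many of these genes through MuvB, a core of Lin9, Lin37, Lin52, Lin54 and the histone-binding protein Rbbp4. In resting cells the core joins the pocket proteins p107 (Rbl1) or p130 (Rbl2) and the repressor E2F4 to form DREAM, which holds cell cycle genes silent. When cells enter the cycle the pocket protein leaves, B-Myb (Mybl2) binds the core, and Foxm1 joins afterwards. LT-HSCs are known as a mostly resting population.

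DREAM reads promoters through 2 kinds of element, the E2F site bound by E2F4 with its partner and the cell cycle homology region (CHR) bound by Lin54. Promoter windows from RefSeq (GRCm38.p6), running from 250 bases before to 50 after the gene start, were at hand for 7 of the 10 genes, namely Mybl2, Lin37, Lin52, Lin54, Rbbp4, Rbl1 and Rbl2. Each window was searched on both strands for E2F letters (TTTGGCGC, TTTCCCGC, TTTCGCGC or TTTGCCGC) and for CHR letters (TTTGAA or TTCGAA). The E2F letters were present in 2.26% of all 32851 windows of this length and the CHR letters in 19.2%. Among the 7 genes, Rbl1 and Lin52 held the E2F letters, and Lin37, Lin54 and Rbl2 held the CHR letters. Neither set of letters was found in the windows of Mybl2 or Rbbp4. Only these exact letters were searched, so their absence does not show that a window lacks an E2F site. The Rbbp4 window holds GTTGGCGC, which differs from TTTGGCGC in its first base. The Mybl2 window holds CTTGGCGG, which differs from it in the first and last base. The windows of Rbl1 (chr2:157204485-157204784, minus strand) and Lin52 (chr12:84451258-84451557, plus strand) are shown, because genes of DREAM itself carry the less common of the 2 sets of letters there. Capitals mark the E2F letters, and a match is a description of the sequence and not a bound site.
Rbl1: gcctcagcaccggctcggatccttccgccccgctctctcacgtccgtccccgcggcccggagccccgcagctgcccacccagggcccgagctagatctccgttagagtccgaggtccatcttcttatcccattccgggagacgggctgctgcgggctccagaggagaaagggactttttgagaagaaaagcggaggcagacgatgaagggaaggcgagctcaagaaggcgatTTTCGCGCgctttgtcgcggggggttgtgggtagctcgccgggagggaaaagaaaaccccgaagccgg
Lin52: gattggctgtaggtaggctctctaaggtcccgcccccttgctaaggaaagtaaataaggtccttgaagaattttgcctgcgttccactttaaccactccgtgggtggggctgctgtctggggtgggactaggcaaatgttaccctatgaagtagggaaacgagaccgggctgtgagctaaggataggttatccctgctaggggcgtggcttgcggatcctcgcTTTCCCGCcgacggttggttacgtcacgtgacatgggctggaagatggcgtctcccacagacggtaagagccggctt
The Rbl1 match begins 18 bases before the gene start, at position -18, and the Lin52 match at position -27. Lin37 had its CHR letters at position -197 and Rbl2 at -201 on the opposite strand, both farther from the start. Lin54 has 2 annotated starts, and its matches lay at -162 and 29 around one and at 40 after the other.

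The libraries held 14573002 to 25798509 counted reads, and the number of genes with at least 10 reads ran from 4467 to 9894, with both the lowest total and the lowest gene number in Foxm1 HET replicate 2. Libraries of the same genotype were about as unlike each other as libraries of different genotype, with Pearson's r across genes of 0.289 to 0.327 within WT, 0.358 to 0.441 within Foxm1 HET and 0.306 to 0.443 between genotypes. The biological coefficient of variation, the spread between libraries as a share of the mean, was 1.66 over all genes. A count near 0 in 1 library therefore does not show that a gene was silent in the cells. Among the 10 DREAM and Foxm1 genes, 4 (40%) had at most 1 read in 1 library and over 100 in another, against 44.2% of the 8195 genes tested. Mybl2 and Lin52, which are among these 4, were below the filter on low counts that the 8195 genes passed, so the shares are of unlike sets. These samples are bulk pools of sorted cells, so that fewer cells expressing a gene and less RNA per cell cannot be told apart. Of 10 LT-HSC markers, 6 had 10 or more reads in all 6 libraries, among them Kit, Hlf, Mecom, Fgd5 and Gata2. The other 4 did not. Slamf1, which encodes the sorting antigen CD150, had 2, 1572 and 0 reads in WT against 8, 0 and 543 in Foxm1 HET, and Ly6a, which encodes the sorting antigen Sca-1, had 125, 4 and 2 against 2261, 2 and 1597. Procr had 776, 20 and 677 against 2368, 3 and 2264, and Hoxb5 had 626, 0 and 0 against 0, 1 and 226.

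Foxm1 was lower in every Foxm1 HET library than in every WT library. It was counted 1182, 2615 and 2942 times in WT replicates 1, 2 and 3 against 659, 5 and 742 times in Foxm1 HET replicates 1, 2 and 3. The 2 genotypes did not overlap, and Foxm1 HET replicate 2 stood far below the other libraries. Foxm1 (gene ID 14235) lies on chromosome 6 of GRCm38 from 128362994 to 128375886 on the plus strand and has 8 exons. Reads scaled to library size by TMM (CPM) were 118 ± 65.3 (SD, n = 3) in WT, against 11.9 ± 9.67 (SD, n = 3) in Foxm1 HET, so that the Foxm1 HET mean was 10.1% of the WT mean. By library size alone it was 17.8%. The log2 fold change was -3.30 (standard error 2.33), with a 95% confidence interval of -7.86 to 1.26, and edgeR's quasi-likelihood test gave an adjusted p of 0.961 over 8195 genes. The interval holds 0 and also -1, the log2 value that equal output from a single remaining allele would give. The exact permutation test (two-sided) gave p = 0.1, the smallest that 3 libraries against 3 allow. Of all genes tested, 0.329% had an adjusted p under 0.05, and 8.68% had log2 CPM that did not overlap between genotypes, 4.55% with Foxm1 HET lower. Non-overlap held for Foxm1 under TMM, RLE, upper-quartile and library-size scaling and in the deposited normalized table, with a gap between the lowest WT and the highest Foxm1 HET library of 1.02 to 2.16 on the log2 scale. Leaving out single libraries moved the log2 fold change between -3.57 and -2.69. Foxm1 HET replicate 2 did not make the difference alone, since the value was -2.69 without it. Which exons the floxed allele loses is not stated in the sources used here, and the counts are over the whole gene.

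**Figure D1:**
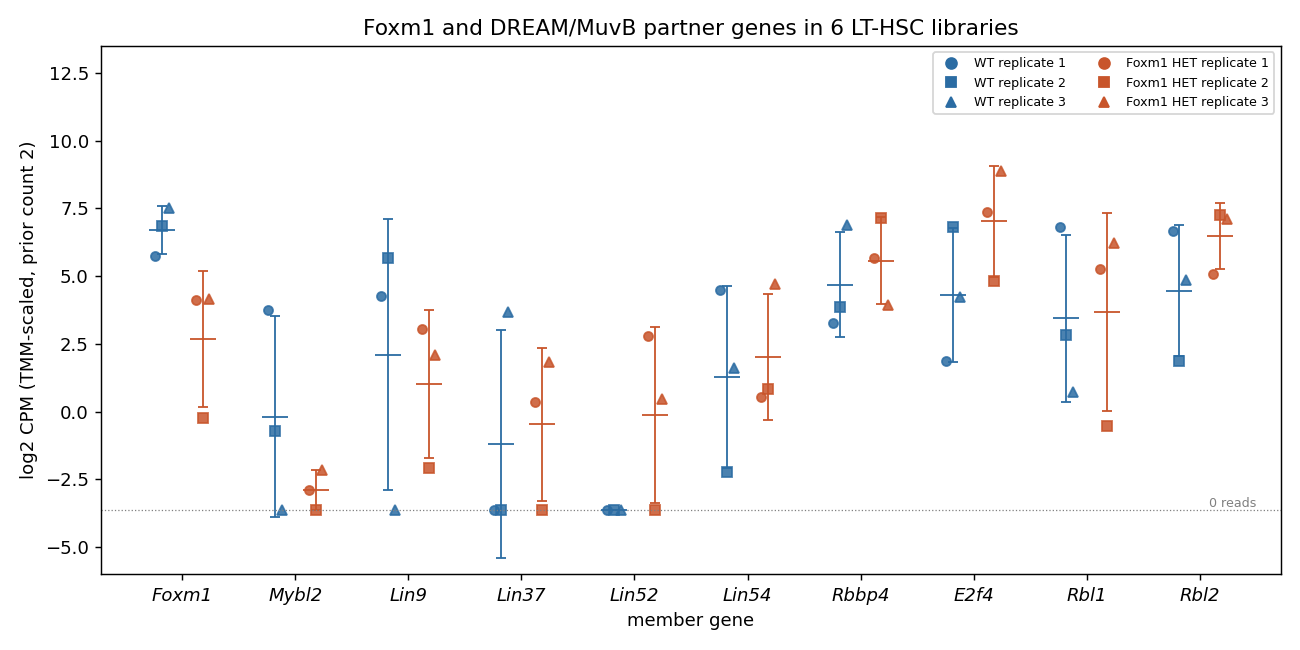
Log2 CPM (TMM-scaled, prior count 2) of the 10 genes in each library, with WT in blue and Foxm1 HET in orange and the symbol giving the replicate. Horizontal marks and bars are the mean and SD of 3 libraries, and the dotted line is the value of 0 reads. Foxm1 is the gene at which the 2 genotypes do not overlap.

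The deposited normalized table gave a different picture of the spread for Foxm1. On its log2 scale, Foxm1 stood at 4.63, 5.66 and 6.12 in WT replicates 1, 2 and 3 against 2.29, 2.40 and 2.47 in Foxm1 HET replicates 1, 2 and 3. The Foxm1 HET libraries thus lay within an SD of 0.0902, although their read counts were 659, 5 and 742. In each library, Foxm1 took a place among the 12179 genes of that table, at percentiles 74.97, 83.2 and 86.6 in WT against 54.5, 55.5 and 56.3 in Foxm1 HET. The number of those genes with any read was 10738 and 10479 in Foxm1 HET replicates 1 and 3 but 7766 in replicate 2, where 5 reads gave about the same percentile as 659 and 742 did in the other libraries. Log2 CPM from the counts were 4.12, -0.23 and 4.16 in the same 3 libraries. Limma on the deposited values gave a log2 difference of -3.08 (adjusted p = 0.885 over 12179 genes), where 0.00821% of genes were called and 9.64% did not overlap. DESeq2 gave -3.49 with an unadjusted p of 0.0196 and an adjusted p of 0.224, where 3.13% of the 6195 genes with an adjusted p from that tool were called, and 13.1% of the 6347 with an unadjusted p had one under 0.05.

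**Figure D2:**
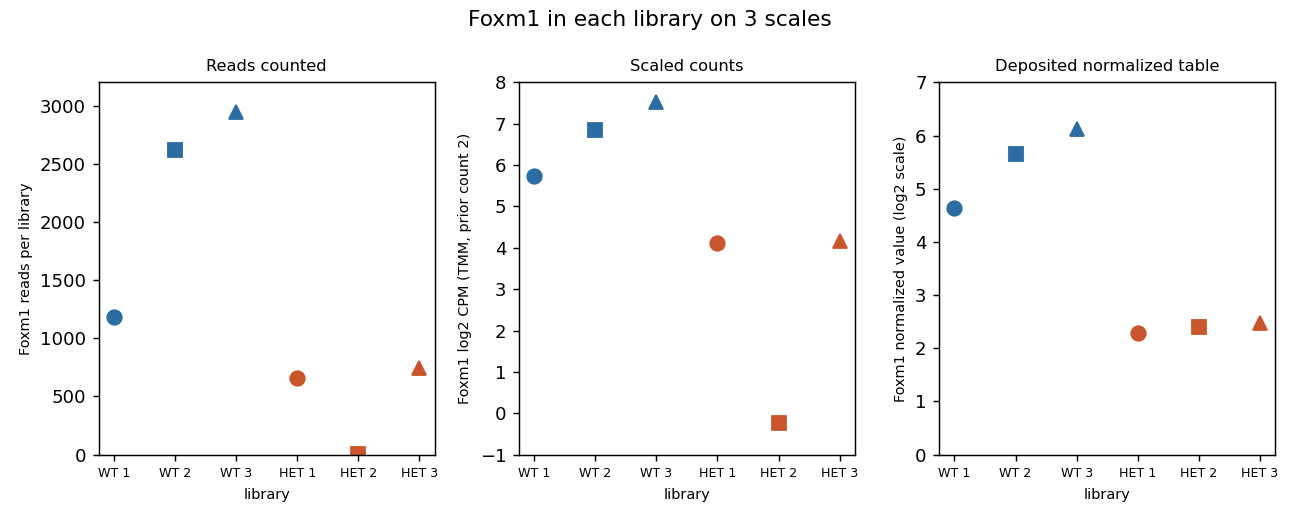
Foxm1 in each library as reads counted, as log2 CPM (TMM-scaled, prior count 2) and as the value in the deposited normalized table on its log2 scale, with WT in blue and Foxm1 HET in orange. Foxm1 HET replicate 2 is near 0 reads in the left panel and level with the other Foxm1 HET libraries, between 2.29 and 2.47, in the right panel.

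Foxm1 has close neighbours at its locus. Rhno1, a gene of the response to DNA damage, starts 96 bases from the Foxm1 start on the other strand. It had 142, 0 and 2 reads in WT against 59, 1746 and 1 in Foxm1 HET. The genotypes overlapped, with nearly all Foxm1 HET reads in replicate 2, and the log2 fold change came to 5.37 (standard error 2.78, adjusted p = 0.844, edgeR). Tex52 overlaps the end of Foxm1 on the same strand over 90 bases, or 2.06% of the exon bases of Foxm1, and had 146, 0 and 1705 reads in WT against 1, 0 and 0 in Foxm1 HET. It was below the filter on low counts and was not tested.

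Mybl2, which encodes B-Myb, the MYB family member that recruits Foxm1 to the MuvB core, was barely detected. It had 297, 12 and 0 reads in WT against 2, 0 and 6 in Foxm1 HET. WT replicate 1 held 297 of the 309 WT reads, the libraries overlapped, and the exact permutation test gave p = 0.4. Mybl2 (chromosome 2, 163054635 to 163084687, plus strand) was below the filter on low counts, so that no fold change was fitted with the other genes. Of its 50-base stretches, 19.3% also occur in other genes, most of them in Gm3320, and an opposite-strand gene overlapping its exons had 0 reads in all 6 libraries.

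The 5 genes of the MuvB core differed in how reliably they were seen. Rbbp4, which encodes a histone chaperone that also serves in other chromatin complexes, was the steadiest. It had 213, 329 and 1918 reads in WT against 1941, 911 and 632 in Foxm1 HET, and thus at least 10 in all 6 libraries. Its log2 fold change was 0.52 (standard error 2.19, 95% confidence interval -3.77 to 4.81), with overlapping genotypes, and -0.46 without Foxm1 HET replicate 2. Rbbp4 (chromosome 4, 129307100 to 129335370, minus strand) shares 11.8% of its exon bases with Sync on the other strand, and Sync had 0 reads in all libraries. Of its 50-base stretches, 17.2% occur in other annotated genes.

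Lin9 (chromosome 1, 180641334 to 180690687, plus strand), a scaffold of the core, had 424, 1157 and 0 reads in WT against 316, 1 and 174 in Foxm1 HET. Each genotype thus had 1 library with at most 1 read, and the other libraries ranged from 174 to 1157. Its log2 fold change was -2.48 (standard error 2.98, 95% confidence interval -8.32 to 3.37), and the exact permutation test gave p = 0.7. Lin54 (chromosome 5, 100442033 to 100500639, minus strand), the subunit that binds the CHR, had 493, 3 and 47 reads in WT against 52, 11 and 1080 in Foxm1 HET. The highest and the lowest library differed in genotype, but the rest were mixed, and the log2 fold change was 0.19 (standard error 2.92), with the sign turning when any 1 of WT replicates 2 and 3 or Foxm1 HET replicate 3 was left out.

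Lin37, needed for repression by DREAM, and Lin52, which joins the core to the pocket proteins, were missing from several libraries. Lin37 had 0, 0 and 204 reads in WT against 46, 0 and 146 in Foxm1 HET, and a log2 fold change of -1.43 (standard error 2.96). It rested on WT replicate 3, without which it was 8.35, a fitted value against WT libraries at 0 reads and so no bound. Lin37 lies on chromosome 7 from 30555441 to 30559646 (minus strand), and 6.23% of its 50-base stretches also occur in Gm8802. Lin52 had 0 reads in every WT library and 260, 0 and 55 in Foxm1 HET. Since Foxm1 HET replicate 2 was also at 0, the genotypes overlapped in the counts, and with a floor of 3 reads a count of 0 allows up to 0.130 to 0.149 CPM in the WT libraries. In the deposited table the genotypes did not overlap for Lin52, at 0.13, 0.14 and 0.16 in WT against 1.92, 0.18 and 0.78 in Foxm1 HET, but the value of Foxm1 HET replicate 2 there stands for 0 reads, as do those of WT. Lin52 (chromosome 12, 84451508 to 84531533, plus strand) was below the filter on low counts.

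The genes of the repressive form of the complex, E2f4 and the pocket proteins, overlapped between genotypes, and none passed the test. E2f4, the main repressor E2F of resting cells, had 79, 2570 and 302 reads in WT against 6368, 183 and 19620 in Foxm1 HET. The 2 highest libraries were Foxm1 HET replicates 3 and 1, but replicate 2, in reads, fell between WT replicates 1 and 3. The log2 fold change was 2.29 (standard error 1.90, 95% confidence interval -1.43 to 6.00, adjusted p = 0.982, edgeR), and leaving out single libraries moved it between 1.199 and 4.27. Limma on the deposited values gave 3.55 with an unadjusted p of 0.0114 and an adjusted p of 0.885, beside 2.04% of all genes with an unadjusted p under 0.05. E2f4 (chromosome 8, 105297663 to 105305370, plus strand) shares no exon base and no 50-base stretch with another annotated gene.

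Rbl2, which encodes p130, the pocket protein of resting cells, had 2234, 81 and 468 reads in WT against 1288, 995 and 5801 in Foxm1 HET. Foxm1 HET libraries lay between 995 and 5801 reads and WT replicate 1 among them. The log2 fold change was 1.28 (standard error 2.08, 95% confidence interval -2.79 to 5.36), and the exact permutation test gave p = 0.2, as it did for E2f4. Rbl2 lies on chromosome 8 from 91070094 to 91123844 on the plus strand. Aktip overlaps 7.08% of the Rbl2 exon bases on the other strand, with 1, 554 and 3 reads in WT against 605, 4 and 928 in Foxm1 HET. Whether strand was used in counting is not given in the sources used here. Of the 50-base stretches of Rbl2, 17.1% also occur in Gm45464 or Aktip. Rbl1, which encodes p107, the pocket protein that accumulates in cycling cells, had 2467, 159 and 25 reads in WT against 1478, 4 and 3137 in Foxm1 HET. Each genotype spanned from 25 or fewer reads to 2467 or more, and the log2 fold change of -0.07 (standard error 2.40) had no stable sign, at 0.25 under upper-quartile scaling and 0.47 by library size, and 3.27 without WT replicate 1. Rbl1 (chromosome 2, 157145893 to 157204534, minus strand) shares no exon base with another annotated gene.

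Of the 8 DREAM and Foxm1 genes tested, 4 had a higher and 4 a lower fitted level in Foxm1 HET, with a median log2 fold change of 0.06, against -0.26 over all 8195 genes. None had an adjusted p under 0.05 with edgeR (0.329% of all genes), none an unadjusted p under 0.05 (6.03% of all genes), and DESeq2 called none (3.13% of the 6195 genes to which it gave an adjusted p), with Foxm1 the only 1 at an unadjusted p under 0.05 by that tool (13.1% of the 6347 with such a p). Limma-voom called none (0.0488% of all genes) and gave none an unadjusted p under 0.05 (3.31% of all genes). Foxm1 was the only 1 of the 10 whose genotypes did not overlap in log2 CPM. The median standard error was 2.36, against 2.59 over all genes, so that a log2 difference of about that size in a single gene lies within its error here.

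**Figure D3:**
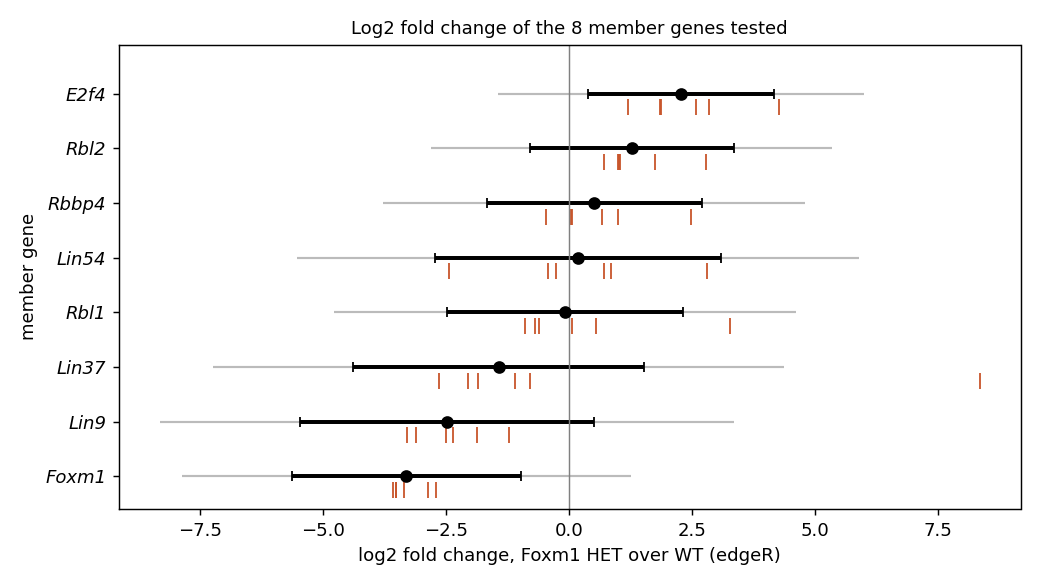
Log2 fold change (Foxm1 HET over WT, edgeR) of the 8 genes that passed the filter on low counts. Points with black bars are the estimate and its standard error, grey lines the 95% confidence interval, and orange ticks the estimates with each of the 6 libraries left out. Every grey line crosses 0, and the orange ticks of Foxm1 lie between -3.57 and -2.69.

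Levels of different genes were compared as TPM, in which reads are divided by exon length and scaled to a fixed sum per library. By mean TPM over the 6 libraries the order was E2f4 (223), Rbl2 (37.1), Foxm1 (30.2), Rbbp4 (22.3), Rbl1 (21.5), Lin9 (10.1), Lin37 (6.06), Lin54 (5.77), Lin52 (2.06) and Mybl2 (1.54). The ranges of every pair of neighbours in this order overlapped, so that the order is a description of means, and it joins genotypes with unlike orders. In WT the highest means were Foxm1 at 50.9 ± 18.7 TPM, E2f4 at 49.5 ± 70.0 and Rbl2 at 20.1 ± 25.8 (SD, n = 3). In Foxm1 HET they were E2f4 at 396 ± 463, Rbl2 at 54.1 ± 48.5 and Rbbp4 at 26.9 ± 12.1 TPM, with Foxm1 at 9.44 ± 8.19 (SD, n = 3). E2f4, at the top, lay between 4.30 TPM and 911 TPM, the latter in Foxm1 HET replicate 3, and Mybl2, at the bottom, between 0 and 8.70 TPM, so that even these ranges overlapped. Rbbp4 had the smallest range, 7.74 times from its lowest to its highest library. The leading gene changed from library to library. It was Rbl2 in WT replicate 1, E2f4 in WT replicate 2, Foxm1 in WT replicate 3, E2f4 in Foxm1 HET replicates 1 and 3, and Rbbp4 in Foxm1 HET replicate 2. Foxm1 itself had 29.4, 60.5 and 62.8 TPM in WT against 12.4, 0.173 and 15.7 TPM in Foxm1 HET. At least 10 reads were counted for 8, 7 and 7 of the 10 genes in WT and for 9, 4 and 9 in Foxm1 HET.

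**Figure D4:**
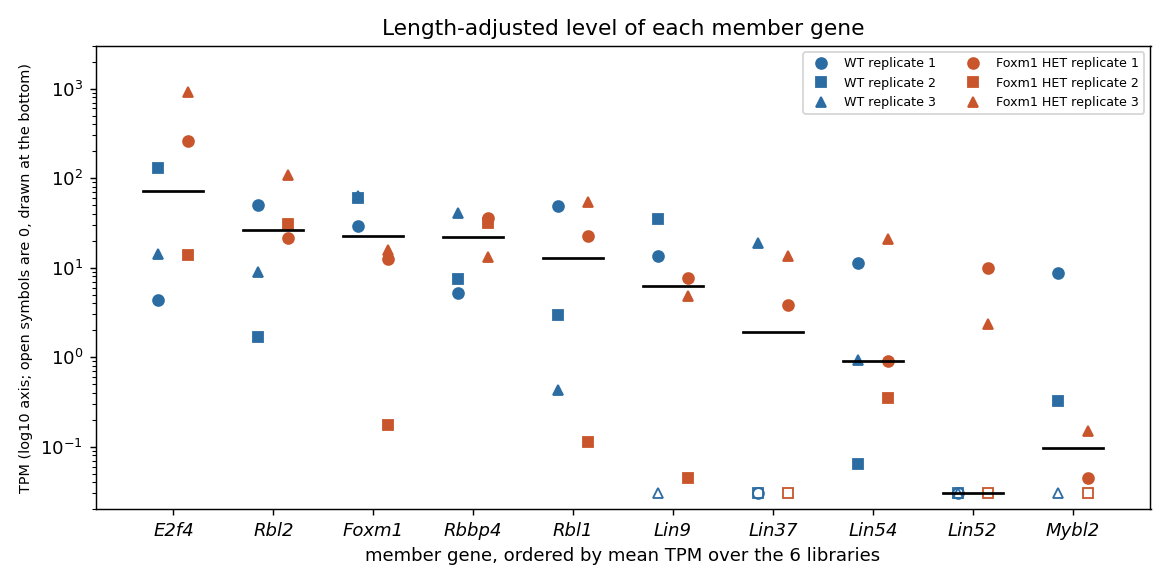
TPM of each gene in each library on a log10 axis, with genes ordered by mean TPM, WT in blue and Foxm1 HET in orange. Black bars are medians over the 6 libraries, and open symbols at the bottom are libraries with 0 reads, as is the bar of Lin52. E2f4 has the highest mean, and each gene overlaps its neighbours.

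Likeness to Foxm1 was taken as Pearson's r of log2 CPM over the 6 libraries, a description in which every gene shares the libraries and their depth. It ranged from -0.63 for Rbl2 to 0.34 for Lin37 among the 7 partners that were tested, and this takes in the genotype difference of Foxm1. With each genotype centred on its own mean it ranged from -0.38 for Rbl2 to 0.73 for Lin37, with E2f4 at 0.72 (-0.12 without centring) and Rbl1 at 0.50. The genes most like Foxm1 among 6528 with a mean of at least 10 CPM were Zfp148 (r = 0.993), Pikfyve (0.992), Gab2 (0.992), Zfp191 (0.991) and Zfp706 (0.990). They shared its lowest library, with 90, 4, 19, 1 and 11 reads in Foxm1 HET replicate 2, in that order. Pikfyve, which encodes a lipid kinase of endosomes and lysosomes, had 848, 3338 and 4284 reads in WT against 438, 4 and 587 in Foxm1 HET, close to the profile of Foxm1. Zfp148, a zinc finger transcription factor, had 1480, 1704 and 1484 reads in WT against 1751, 90 and 1959 in Foxm1 HET, so that its raw counts overlapped between genotypes. With 6 points and 6528 genes, values of r this near 1 were picked as the highest and carry no test.

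The wider pathway was taken as 4 lists of 127 genes in all, of which 116 passed the filter on low counts. None was called by edgeR or by DESeq2, and 1 had an unadjusted p under 0.05 with edgeR, against 6.03% of all genes. Of the 116, 66 had a lower and 50 a higher fitted level in Foxm1 HET, or 56.9% lower against 54.6% of all genes tested. Neighbouring lists share Ccna2, Ccnb1, Ccnf, Cdk1 and Plk1, or Ccne1 and Ccne2.

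The list of 13 other E2F, DP, pocket protein and MYB family genes, with the Rbbp4 relative Rbbp7, split 6 higher and 7 lower, and their median log2 fold change was -0.26, as was that of all genes. Single libraries moved it from -1.56 without Foxm1 HET replicate 1 (-0.46 over all genes) to 0.70 without WT replicate 3 (0.15 over all genes). E2f6, a repressor that acts without pocket proteins, had 1355, 6 and 10665 reads in WT against 1407, 4 and 1146 in Foxm1 HET, with a log2 fold change of -3.49 (adjusted p = 0.910, edgeR) that was -0.54 without WT replicate 3. Tfdp1, the dimer partner that E2F4 needs to bind DNA, had 1487, 679 and 3543 reads in WT against 74, 184 and 895 in Foxm1 HET. Its genotypes did not overlap in TMM-scaled log2 CPM but did under RLE, upper-quartile and library-size scaling and in the deposited table. The log2 fold change was -2.62 (standard error 2.29). Myb, a MYB family factor needed by hematopoietic progenitors, was counted in every library, with 7507, 15156 and 4498 reads in WT against 8404, 23214 and 13934 in Foxm1 HET. The fitted log2 fold change of 1.68 became -0.59 without Foxm1 HET replicate 2. E2f2, an activator E2F, had 4, 8649 and 4133 reads in WT against 4958, 329 and 368 in Foxm1 HET, with overlapping genotypes.

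Of the 23 cyclins, kinases and APC regulators that act on DREAM and Foxm1, 15 were lower and 8 higher, and the median log2 fold change was -0.65, or -0.34 without Foxm1 HET replicate 2 (-0.30 over all genes). Ccna2 encodes cyclin A2, which with its kinase releases the self-inhibition of Foxm1. It had 6860, 3406 and 17208 reads in WT against 5644, 141 and 3471 in Foxm1 HET, and the log2 fold change came to -2.60 (standard error 1.67, adjusted p = 0.941, edgeR). In TMM-scaled log2 CPM its genotypes did not overlap, but they did under upper-quartile and library-size scaling and in the deposited table. Ccne1, which encodes cyclin E1 of the G1/S transition, had 10, 1 and 0 reads in WT against 74, 9 and 237 in Foxm1 HET (fitted log2 fold change 4.13, standard error 3.16). In reads the genotypes overlapped, since Foxm1 HET replicate 2 lay below WT replicate 1. Under the 4 scalings every Foxm1 HET library was higher than every WT library, as for 4.10% to 5.31% of all genes tested. In the deposited table the genotypes overlapped. Melk and Ccnf had the 2 smallest p in this list and each had WT libraries with at least 1848 reads beside others with at most 17. Melk, a mitotic kinase gene, had 1848, 0 and 17 reads in WT against 15, 1 and 9 in Foxm1 HET (fitted log2 fold change -6.74, -0.91 without WT replicate 1, adjusted p = 0.880, edgeR), and Ccnf, a cyclin of the SCF ubiquitin ligase, had 3335, 18430 and 9 in WT against 4761, 3 and 313 in Foxm1 HET (fitted log2 fold change -2.86, -0.81 without WT replicate 2, adjusted p = 0.941, edgeR).

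The G2/M genes are the known targets shared by Foxm1, B-Myb and MuvB. Of 55, 45 were tested, and 27 of these were lower and 18 higher in Foxm1 HET. Their median log2 fold change was -1.10, against -0.26 over all genes. Relative to the median of all genes the list's median was lower by 0.72 to 1.01 on the log2 scale under the 4 scalings. Without WT replicate 1 the list's median was 0.07 over 49 genes, against 0.25 over all genes. Without Foxm1 HET replicate 2 it was -1.50 over 53 genes, against -0.30 over all genes. The filter on low counts was applied anew in these fits, so both medians take in genes outside the 45. The shifts are thus not the effect of 1 library on the same genes alone. No G2/M gene had an unadjusted p under 0.05. In TMM-scaled log2 CPM, Bub1b, Ccna2, Ccnb1, Dlgap5 and Top2a were lower in every Foxm1 HET library than in every WT library, and Aspm was higher. These are 5 and 1 of 45 genes, beside 4.55% lower and 4.12% higher over all genes tested. In the deposited values, 4 of the 45 G2/M genes were lower throughout (Bub1b, Ccnb1, Dlgap5 and Nuf2) and 0 higher. Of the 8165 tested genes found in that table, 4.89% were lower throughout and 4.58% higher. Nuf2 had 0 reads in Foxm1 HET replicates 2 and 3, and Dlgap5 had 0 in replicate 2. Aspm was also higher under upper-quartile and library-size scaling, but its genotypes overlapped under RLE scaling and in the deposited table. By library size or upper-quartile scaling, 1 gene, Ccnb1, was still lower in every Foxm1 HET library, and 2.90% and 3.26% of all genes tested were. Ccnb1, which encodes cyclin B1 of the mitotic kinase, had 258, 686 and 195 reads in WT against 8, 0 and 141 in Foxm1 HET (fitted log2 fold change -3.90, standard error 3.26). It was chosen for description after its values were seen, as were Aspm and Top2a. Aspm, a spindle pole gene, had 252, 312 and 191 reads in WT against 2053, 396 and 588 in Foxm1 HET (fitted log2 fold change 1.80). Top2a, the topoisomerase of dividing cells, had 12625, 11760 and 8351 reads in WT against 18545, 453 and 6856 in Foxm1 HET, so that the lower scaled value of Foxm1 HET replicate 1 came from its TMM factor of 1.54. Ttk, a kinase of the spindle checkpoint, had 749, 0 and 2045 reads in WT against 218, 6 and 0 in Foxm1 HET (fitted log2 fold change -4.60, adjusted p = 0.941, edgeR), and Cdc25b, a phosphatase that starts mitosis, had 303, 1209 and 0 in WT against 63, 1 and 1 in Foxm1 HET (fitted log2 fold change -5.17, adjusted p = 0.945, edgeR). In both, 1 WT library stood at 0 reads and the genotypes overlapped.

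The G1/S genes are targets of E2F and DREAM that serve DNA replication and repair. Of 43, 42 were tested, and 21 were higher and 21 lower. Their median log2 fold change was -0.07 and had no stable sign, at 1.05 without WT replicate 1 (0.25 over all genes), 0.69 without WT replicate 3 (0.15 over all genes) and -0.44 without Foxm1 HET replicate 1 (-0.46 over all genes). The 9 of its genes with at least 10 reads in every library had a median of 1.06 (-0.09 over all genes so filtered). Mcm3, a subunit of the replicative helicase, had 185, 31 and 63 reads in WT against 2382, 431 and 4969 in Foxm1 HET. Every Foxm1 HET library exceeded every WT library for Mcm3 under all 4 scalings and in the deposited table. Of all genes tested, 4.10% to 5.31% did so, depending on the setting. In TMM-scaled log2 CPM, 3 of the 42 genes were higher throughout and 0 lower, beside 4.12% and 4.55% of all genes tested. The log2 fold change of Mcm3 came to 4.18 (standard error 2.66, adjusted p = 0.941, edgeR). DESeq2 gave it an adjusted p of 0.059, where 3.13% of the 6195 genes with an adjusted p from that tool were called. Cdc6, which loads the helicase, had 1917, 0 and 1245 reads in WT against 109, 0 and 166 in Foxm1 HET (fitted log2 fold change -4.58, adjusted p = 0.941, edgeR).

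**Figure D5:**
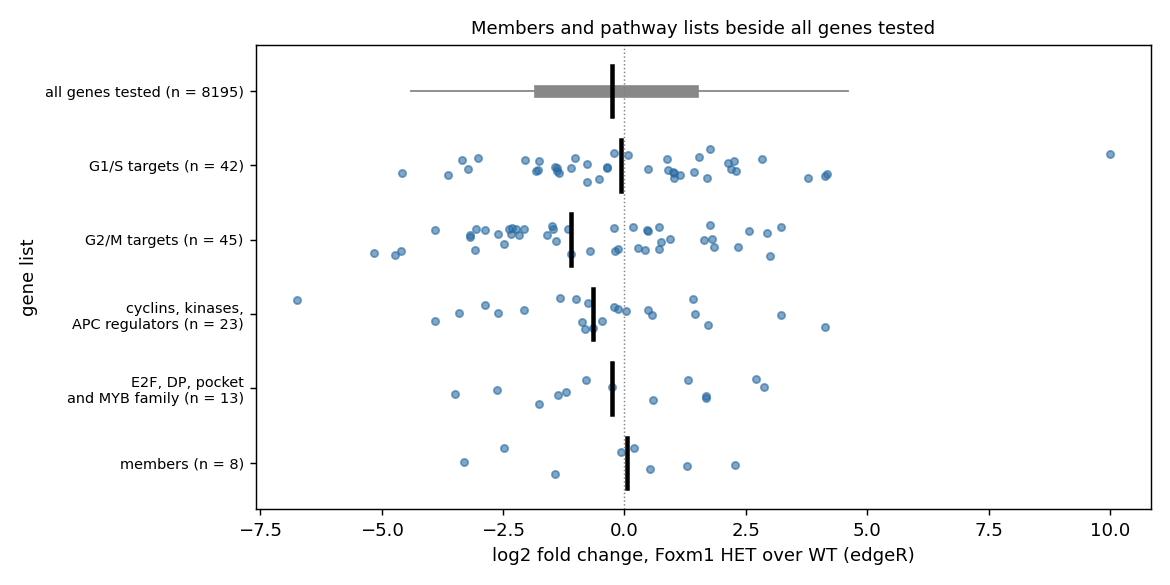
Log2 fold change (Foxm1 HET over WT, edgeR) of each gene tested, for the DREAM and Foxm1 genes and the 4 pathway lists. Each point is a gene, black bars are medians, and for all 8195 genes the thick bar spans the 25th to 75th and the thin line the 5th to 95th percentile (-4.40 to 4.61). The G2/M median is -1.10 and the medians of the G1/S and E2F lists are -0.07 and -0.26.

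Markers of other cells were also read in these libraries, and their summed levels are given here as CPM by library size alone, without TMM. Neutrophil granule genes were abundant, with 8 of 9 at 10 or more reads in all 6 libraries and a summed level of 5338 to 15753 CPM in WT and 1362 to 8371 CPM in Foxm1 HET. Their part in the levels of the cell cycle genes was not tested. The LT-HSC list summed to 2889 to 6464 CPM in WT and 3934 to 5328 CPM in Foxm1 HET, overlapping between genotypes. The erythroid list lay at 91.9 to 119 CPM in WT and 195 to 289 CPM in Foxm1 HET without overlap, but TMM-scaled it overlapped, at up to 160 CPM in WT and from 141 CPM in Foxm1 HET, with Hba-a1 at 0 in all libraries and Car1 the source of most Foxm1 HET reads, and its part was not tested either. The B-lymphoid list, at 12.6 to 200 CPM in WT and 0 to 6.68 CPM in Foxm1 HET, did not overlap and had Cd79a, Ebf1, Vpreb1 and Igll1 at 0 in all libraries. Megakaryocyte genes reached at most 7.80 CPM in WT and 11.9 CPM in Foxm1 HET. T and NK genes reached 9.99 and 30.5 CPM, with Cd3d, Cd3g and Klrd1 at 0. Macrophage genes ran from 16.2 to 194 CPM in WT and 4.61 to 178 CPM in Foxm1 HET, with C1qa, C1qb and Cd14 at 0. Progenitor markers (Cd48, Flt3 and Cd34) ran from 19.4 to 1369 CPM in WT and 46.8 to 748 CPM in Foxm1 HET.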

How the data were processed

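RNA from sorted LT-HSCs of 3 WT and 3 Foxm1 HET mice was sequenced. Per the labels and the study's methods, STAR 2.7.2b was the aligner, GRCm38 the build, and limma a further tool. The counting program and its use of strand are not given in the sources used here, and the labels and the methods name different library kits. The authors deposited read counts per gene, not normalized, for 27179 genes, and a normalized table on a log2 scale for 12179 genes. How the second table was made is not given in the sources used here.

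Groups came from the genotype labels. Counts were analysed in edgeR 4.0.16 (R 4.3.3) with the default filter on low counts (minimum count 10), TMM scaling and the quasi-likelihood test, Benjamini-Hochberg adjusted over the 8195 genes kept. Log2 CPM used a prior count of 2, and intervals (95%) are from the normal distribution because the test's degrees of freedom were infinite. Exact permutation tests (two-sided) compared log2 CPM. TPM used the deposited exon lengths. Positions and exon overlaps used the coordinates in the count table, and shared 50-base stretches GENCODE transcripts. Gene symbols covered 94.1% of identifiers. The model was run on simulated counts with a smaller spread between libraries than these data have, so that run does not show how it performs at their spread. Reads are not independent molecules, so a floor of 3 counts for a value of 0 covers counting error only. Library totals ran from 14573002 to 25798509. Nothing in the labels says that libraries differ by batch. Each library is taken as 1 mouse, and p-values measure only the spread between these libraries.

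The genes and lists were chosen with earlier results of these data known. Named are all 10 genes; Rhno1 and genes whose exons overlap theirs; from each list every gene with an adjusted p under 0.05 and the 4 with the smallest unadjusted p; and the 5 genes with a mean of at least 10 CPM whose log2 CPM had the highest r with Foxm1. Of the genes named by these rules or lists, 3 are not reported here, and they are included in the counts over genes. Alternatives were scaling by RLE, by upper quartile or by library size only, other filters, the replicate number as a block, DESeq2 1.42.0, limma-voom and limma 3.58.1 on the deposited log2 table, a prior count of 0.5, and leaving out each library. With a library left out, the filter on low counts was applied anew, so the genes tested differ between these fits. Overlap of the genotypes under each scaling was added after the data were seen.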

Additional observations from a re-analysis of the deposited data

How the results depend on the processing

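No DREAM, Foxm1 or pathway list gene had an adjusted p under 0.05 under any alternative run. Over all genes, 27 were called by edgeR, and 10, 43 and 7 under RLE, upper-quartile and library-size scaling, 36 of 13845 with no filter, 0 with at least 10 reads in every library (157 at an unadjusted p under 0.05, 2516 tested), 194 with DESeq2, 4 with limma-voom, 1 with limma on the deposited table, and 0 to 29 with a library left out. The median log2 fold change of all genes was -0.26 with TMM, -0.13 with RLE, 0.14 with upper-quartile and 0.10 with library-size scaling. Foxm1 kept its direction under every alternative that could include it. It was left out by the filter of 10 reads in every library, having 5 in Foxm1 HET replicate 2.

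The sign of 4 genes changed, and the cause was not tested. Lin37 was 1.60 with limma-voom and between -2.63 and 8.35 with 1 library left out, the highest without WT replicate 3, where WT stood at 0 reads. Lin54 lay between -2.43 and 2.81 and Rbbp4 between -0.46 and 2.48 with 1 library left out. Rbl1 was 0.25 with upper-quartile and 0.47 with library-size scaling, 0.94 with limma-voom, 0.20 with limma on the deposited table, and between -0.89 and 3.27 with 1 library left out. The number of G2/M genes lower in every Foxm1 HET library was 5 of 45, beside 4.55% of all genes tested. It was 1 under upper-quartile scaling (3.26% of all genes) or library-size scaling (2.90%).

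Same-numbered libraries did not deviate together (r = 0.0162, -0.0253 and -0.0687 for numbers 1, 2 and 3), which does not show whether the mice were paired. The study's methods speak of 3 pairs of mice without saying that the numbers mark them, and the mice were compared as unpaired. With the replicate block, edgeR called 0 genes (108 at an unadjusted p under 0.05), Foxm1 had a log2 fold change of -3.85, and Lin37 turned to 1.53.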
